A study of Mus musculus with 16 samples.

Results

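The interleukin 6 (IL-6) family and SOCS3 genes described here are Il6, Lif, Il6ra, Lifr, Osmr, Il6st, Stat3 and Socs3, 8 of the 52636 genes in the deposited count table, taken by their gene symbols. They were read across bulk RNA-seq libraries of whole descending thoracic aorta from mice of 2 inbred strains. The 4 groups of 4 libraries were C57BL/6J with AngII, C57BL/6J control, 129S6/SvEvTac with AngII and 129S6/SvEvTac control. AngII is angiotensin II, a vasoconstrictor peptide given to raise blood pressure, and the series sets the 2 strains side by side to ask how the hypertensive aorta remodels. No transgene or deleted allele is named for any group, and the labels give no dose, duration, age or sex and do not say that each library is 1 animal, so p-values measure only the spread between these libraries, which may be technical. The 8 genes were chosen by the pathway they form and with their fold changes between C57BL/6J AngII and control libraries already known, so their AngII response in that strain is given as a description with no test.

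Cytokines of this family signal through the shared receptor chain gp130, encoded by Il6st. IL-6 binds its own receptor chain IL-6Ra (Il6ra) before it pairs gp130, leukaemia inhibitory factor (Lif) binds LIFR (Lifr), and oncostatin M binds a complex of gp130 with OSMR (Osmr). The receptors activate JAK kinases, which phosphorylate STAT3 (Stat3), and STAT3 switches on Socs3, whose product binds gp130 and JAKs and shuts the signal off. In the vessel wall IL-6 is known as a product of fibroblasts, smooth muscle cells and macrophages during inflammation.

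Values below are counts scaled to a common library size (CPM, with TMM factors), and fold changes come from edgeR's quasi-likelihood fit on all 17125 genes that passed a filter on low counts, with Benjamini-Hochberg adjustment and a threshold of 0.05. All 8 genes passed that filter, Il6 only through the C57BL/6J AngII libraries. Depth ran from 42116120 to 61381134 counts in 15 libraries, with 121573945 in 129S6/SvEvTac AngII 5. The summed CPM of 6 smooth muscle markers, all detected, was 12494 to 29539 in C57BL/6J AngII libraries and 38890 to 42140 in C57BL/6J controls, and 36323 to 45759 in 129S6/SvEvTac AngII libraries and 38080 to 41129 in 129S6/SvEvTac controls. The sum of 6 macrophage markers was 882 to 1700 in C57BL/6J AngII libraries and 298 to 410 in C57BL/6J controls, and 187 to 376 in 129S6/SvEvTac AngII libraries and 153 to 273 in 129S6/SvEvTac controls. In bulk tissue, fewer cells of a type and less RNA per cell cannot be told apart, and the part of these cell marker shifts in the results below was not tested. Adipocyte marker sums were 123 to 2851 CPM in C57BL/6J AngII libraries and 73.1 to 219 CPM in C57BL/6J controls, and 229 to 1026 CPM in 129S6/SvEvTac AngII libraries and 104 to 486 CPM in 129S6/SvEvTac controls. The highest sum of each AngII group was that of C57BL/6J AngII 1 and 129S6/SvEvTac AngII 5, and each count of called genes was repeated without those 2 fat-marked libraries. C57BL/6J AngII 5 stayed in those repeats, although its adipocyte sum of 1227 CPM was above the 1026 CPM of 129S6/SvEvTac AngII 5. Sums for adventitial fibroblasts were 2381 to 3779 CPM in C57BL/6J AngII libraries and 1612 to 1833 CPM in C57BL/6J controls, and 1176 to 2385 CPM in 129S6/SvEvTac AngII libraries and 1316 to 1837 CPM in 129S6/SvEvTac controls. Endothelial sums overlapped in both strains (615 to 2263 CPM over all libraries). The remaining sums were low, at most 34.8 CPM for neutrophils (C57BL/6J control 3), 79 CPM for skeletal and cardiac muscle, 72.1 CPM for mesothelium and 11.7 CPM for T cells. Ly6g was at 0 in all 129S6/SvEvTac AngII libraries and Wt1 at 0 in all C57BL/6J controls. Mesothelial sums were 0 to 2.08 CPM in C57BL/6J controls and 14.4 to 72.1 CPM in 129S6/SvEvTac controls. Skeletal and cardiac muscle sums were 6.21 to 9.5 CPM and 11.6 to 40.1 CPM in the same groups. With AngII the ranges of the strains overlapped for both lists. The part of these sums in the strain comparisons was not tested.

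The 3 genes that differed most between C57BL/6J AngII and control libraries were Il6, Socs3 and Lif, and the sequence just before their transcription starts is shown so that the known signalling motifs can be seen. All 8 genes matched an entry in RefSeq's promoter table (GRCm38.p6), and the 250 bases before the start were searched on both strands for 3 motifs, the STAT motif TTCNNNGAA, the AP-1 motif TGANTCA and the NF-kB motif. The first 2 read the same on both strands. Matches are in capitals, no 2 matches overlap, and bases that GENCODE gives to an exon are left out.
Il6 (chr5:30012864-30013113, plus strand): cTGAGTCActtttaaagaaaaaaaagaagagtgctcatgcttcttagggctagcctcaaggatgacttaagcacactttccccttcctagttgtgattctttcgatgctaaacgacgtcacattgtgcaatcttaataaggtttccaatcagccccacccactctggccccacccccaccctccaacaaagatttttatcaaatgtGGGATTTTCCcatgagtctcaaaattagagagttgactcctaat
Lif (chr11:4257318-4257556, plus strand): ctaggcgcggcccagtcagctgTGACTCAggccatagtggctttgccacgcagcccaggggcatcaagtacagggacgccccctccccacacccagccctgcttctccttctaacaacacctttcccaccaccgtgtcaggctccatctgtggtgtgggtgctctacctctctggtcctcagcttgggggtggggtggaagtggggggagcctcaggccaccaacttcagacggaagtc
Socs3 (chr11:117969452-117969616, minus strand): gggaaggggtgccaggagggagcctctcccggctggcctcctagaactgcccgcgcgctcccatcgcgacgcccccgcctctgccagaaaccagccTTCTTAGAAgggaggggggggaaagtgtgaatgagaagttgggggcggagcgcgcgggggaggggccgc
The Il6 stretch held TGAGTCA with its first base at -249 from the start and an NF-kB match, GGGATTTTCC, at -44. The Lif stretch held TGACTCA at -228. The Socs3 stretch held TTCTTAGAA at -154, and it lies inside the longer Socs3 gene model of GENCODE, between exons. Of 32851 mouse promoters of the same length, 7.02% held the STAT motif, 6.75% the AP-1 motif and 5% the NF-kB motif, so each match is a description of the letters and no sign of binding. No match to any of the 3 was found in the windows of the other 5 genes.

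Among the ligands, Il6 was counted almost only in C57BL/6J aortas with AngII. Its level was 4.02, 16.4, 14.5 and 7.61 CPM in C57BL/6J AngII libraries 1, 2, 3 and 5, from 200, 755, 846 and 453 counts, against 0 counts in each of the 4 C57BL/6J controls. That is at least 723-fold higher, taking 3 counts summed over the control group as the upper limit that its 0 allows. In 129S6/SvEvTac, 1 of 4 AngII libraries held 6 Il6 counts (0.0524 CPM) and 1 of 4 controls held 3 counts (0.0564 CPM), and the other 6 libraries held 0. The ratio of the pooled 129S6/SvEvTac AngII and control levels was 1.56 with a 95% counting interval of 0.332 to 9.62 (exact, counting error only), and the exact two-sided permutation test over libraries gave p = 1 (n = 4 each). The only 129S6/SvEvTac AngII library with Il6 counts was also the most deeply sequenced one, and a count of 0 over that group's libraries would allow up to 0.0123 CPM. C57BL/6J AngII libraries held 429 times the pooled Il6 level of 129S6/SvEvTac AngII libraries (95% counting interval 197 to 1169, counting error only, 2254 against 6 counts), a description with no test, since the gene was chosen on the first of these groups. Il6 lies on chromosome 5 at 30013114 to 30019981 (GRCm38, plus strand), and its exons overlap no other annotated gene.

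Lif, the cytokine named for its effect on leukaemia cells, had a similar shape at a lower contrast. It measured 7.58, 13.7, 5.74 and 6.23 CPM in C57BL/6J AngII libraries 1, 2, 3 and 5, against 1.29, 1.64, 1.42 and 1.51 CPM in C57BL/6J controls 1, 2, 3 and 5. Every AngII library stood above every control, 5.66-fold on average (log2 2.50 ± 0.34, SE). The 129S6/SvEvTac AngII libraries gave 1.62, 0.707, 1.16 and 2.17 CPM, against 1.15, 2.01, 1.71 and 1.55 CPM in 129S6/SvEvTac controls, and these ranges overlap. The log2 difference there was -0.17 ± 0.33 (SE, edgeR adjusted p = 0.809, n = 4 each).

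Socs3, the feedback inhibitor, had the largest fold difference after Il6. Its levels were 77.4, 90.7, 84.7 and 64.1 CPM in C57BL/6J AngII libraries 1, 2, 3 and 5, against 9.02, 11.9, 9.70 and 10.5 CPM in C57BL/6J controls. The lowest AngII library was thus far above the highest control, and the mean difference was 7.69-fold (log2 2.94 ± 0.23, SE). In 129S6/SvEvTac, AngII libraries 1, 2, 4 and 5 gave 15.2, 6.21, 8.74 and 14.2 CPM, against 8.21, 8.22, 8.02 and 8.38 CPM in controls. Libraries 1 and 5 lay above all 129S6/SvEvTac controls and library 2 lay below them all. The log2 change of 0.44 ± 0.21 (SE) did not pass the test (edgeR adjusted p = 0.215, n = 4 each), and without AngII library 2 it was 0.62 with adjusted p = 0.0321. Library 2 also stood apart in its cell markers, with an endothelial sum of 2263 CPM against 702 to 1130 CPM in the other 3 of the group and a T cell sum of 11.7 CPM against 1.10 to 3.19 CPM. Its macrophage sum of 187 CPM and fibroblast sum of 1176 CPM were the lowest of the group, and their part in the result was not tested. The controls' spread was small, 8.21 ± 0.15 CPM (SD, n = 4), beside 11.1 ± 4.33 CPM (SD, n = 4) with AngII.

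**Figure D1:**
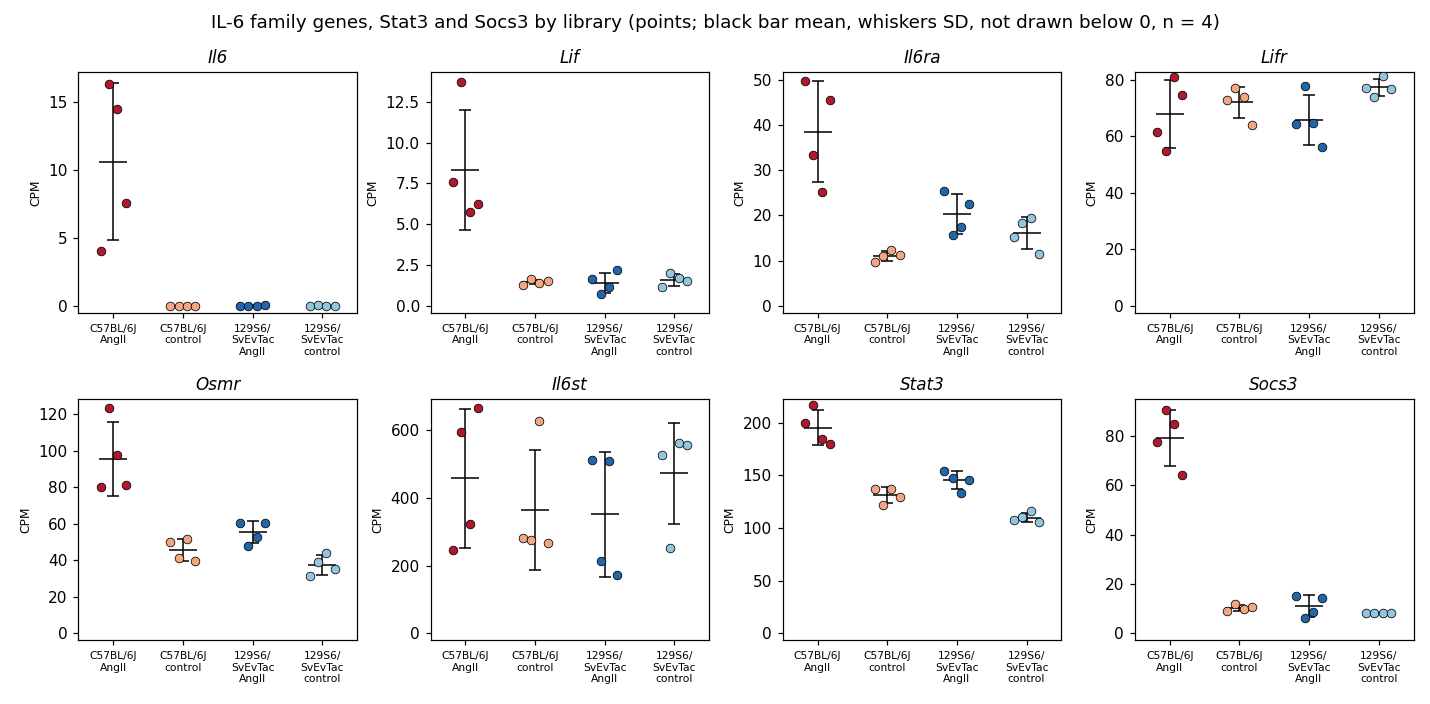
Level of each gene in CPM (vertical axes, starting near 0, 1 scale per gene) in the 4 libraries of each group. Il6, Lif and Socs3 stand apart in C57BL/6J AngII libraries, while Il6st splits into a low and a high set in every group.

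The receptors did not all behave alike. Il6ra, the IL-6 binding chain, read 49.7, 33.4, 25.3 and 45.5 CPM in C57BL/6J AngII libraries 1, 2, 3 and 5, against 9.72, 10.96, 12.3 and 11.2 CPM in C57BL/6J controls (3.48-fold, log2 1.80 ± 0.22, SE). The 2 highest AngII libraries, 1 and 5, also had the highest macrophage marker sums of the group, 1484 and 1700 CPM against 903 and 882 CPM in libraries 2 and 3. Their adipocyte sums, 2851, 369, 123 and 1227 CPM in libraries 1, 2, 3 and 5, ran in the same order as Il6ra. In 129S6/SvEvTac the AngII libraries gave 25.3, 15.7, 17.5 and 22.4 CPM and the controls 15.1, 18.3, 19.4 and 11.5 CPM, which overlap (log2 0.33 ± 0.21, SE, edgeR adjusted p = 0.363, n = 4 each). Libraries 1 and 5, the higher ones there too, again had the higher macrophage sums of their group, 351 and 376 CPM against 187 and 220 CPM, while the adipocyte sums were 419, 229, 454 and 1026 CPM in libraries 1, 2, 4 and 5. The part of either marker list in Il6ra was not tested. Il6ra shares 242 bp of exon with the antisense gene Gm42809, and reads of the 2 cannot be told apart where strand was not used.

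Osmr, the oncostatin M receptor chain, was the receptor that rose in 129S6/SvEvTac. It gave 60.7, 48.1, 52.5 and 60.2 CPM in 129S6/SvEvTac AngII libraries 1, 2, 4 and 5, against 31.3, 38.9, 43.9 and 35.2 CPM in the controls, with no overlap (1.48-fold, log2 0.57 ± 0.15, SE, edgeR adjusted p = 0.0198, n = 4 each). The call was lost when any of 4 libraries was left out, with adjusted p of 0.0651 and 0.0648 without AngII 1 and AngII 5, and of 0.0743 and 0.0664 without control 1 and control 4. It was also lost with scaling by library size only (log2 0.41, adjusted p = 0.0756). In C57BL/6J, Osmr was at 80.2, 123.8, 97.6 and 81.1 CPM in AngII libraries and at 50.0, 41.3, 51.5 and 39.6 CPM in controls (2.10-fold, log2 1.07 ± 0.15, SE).

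Lifr, the receptor chain for Lif, stayed between 54.8 and 81.1 CPM in C57BL/6J AngII libraries and between 64.1 and 77.2 CPM in C57BL/6J controls (log2 -0.08 ± 0.12, SE). With AngII the 129S6/SvEvTac libraries ran from 56.3 to 77.8 CPM, against 73.8 to 81.5 CPM in controls, a log2 change of -0.23 ± 0.12 (SE, edgeR adjusted p = 0.237, n = 4 each). That change passed only with scaling by library size alone (log2 -0.40, adjusted p = 0.0286). In C57BL/6J, Lif was thus separate between AngII and control libraries while its receptor chain overlapped.

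Il6st, the shared gp130 chain, had the largest pooled SD of log2 CPM within groups among the 8 genes. It was narrowly above Il6 (0.65), whose counts were at or near 0 in all groups but C57BL/6J AngII. Its levels were 245.9, 596, 323 and 667 CPM in C57BL/6J AngII libraries 1, 2, 3 and 5 and 282.7, 275.7, 628 and 265.8 CPM in C57BL/6J controls. They were 510.7, 213.5, 508 and 172 CPM in 129S6/SvEvTac AngII libraries 1, 2, 4 and 5 and 526, 250.9, 562 and 554.9 CPM in 129S6/SvEvTac controls 1, 2, 3 and 4. No library lay between 323 and 508 CPM, and each group had members on both sides of that gap, with 2 C57BL/6J AngII, 1 C57BL/6J control, 2 129S6/SvEvTac AngII and 3 129S6/SvEvTac control libraries on the high side. The pooled SD within groups was 0.68 on the log2 CPM scale, and 2.4% of 626 genes at a like level had one as large, against a median of 0.17 for those genes. Neither AngII effect could be told from that spread, at log2 0.34 ± 0.43 (SE) in C57BL/6J and -0.43 ± 0.43 (SE, edgeR adjusted p = 0.583, n = 4 each) in 129S6/SvEvTac.

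Stat3, the transcription factor of the pathway, had the smallest spread of the 8 and was modestly higher with AngII in both strains. It measured 154, 148, 134 and 145 CPM in 129S6/SvEvTac AngII libraries, against 107, 111, 116 and 106 CPM in 129S6/SvEvTac controls. Each AngII library was above each control, and Stat3 rose 1.32-fold (log2 0.40 ± 0.07, SE, edgeR adjusted p = 0.00263, n = 4 each), a call that held in all 25 alternatives tried. In C57BL/6J it was 199.7, 217, 185 and 179.9 CPM with AngII, against 137, 121.6, 136.8 and 129.6 CPM in controls (1.49-fold, log2 0.57 ± 0.07, SE). Stat3 shares 72 bp of exon with Stat5a on the opposite strand, a small part of its 9527 bp of exon.

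Counted over the set, AngII in 129S6/SvEvTac gave 2 of 8 genes higher and 0 lower, beside 7.71% of all tested genes called higher and 4.47% called lower. The median log2 change of the 8 was 0.37, against 0.003 over all tested genes. Without the 2 fat-marked libraries the count was 1, Stat3. With scaling by library size only, which shifts the median of all genes to -0.157 in this comparison, it was Stat3 higher and Lifr lower, and the share of higher genes among all calls there was 25.2% in place of 63.3%. In C57BL/6J the count was 6 of 8 higher and 0 lower beside 21.8% of tested genes called higher, a count fixed in part by how the genes were chosen. It was 6 in each of 25 alternatives.

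In C57BL/6J with AngII, library 2 had the highest level of the 4 for Il6, Lif, Osmr, Stat3 and Socs3, and also for the ligands Osm, Il11 and Clcf1 described below. Its macrophage and smooth muscle sums, 903 and 16772 CPM, were neither the highest nor the lowest of the group. In 129S6/SvEvTac with AngII, libraries 1 and 5 were the 2 highest for Lif, Il6ra, Osmr and Socs3. The genes whose log2 CPM most resembled these patterns over the 16 libraries were searched among 12561 genes, as a description in which all points share their libraries and group means. For Il6 they were Il13ra1 (Pearson r = 0.980, Spearman rho = 0.713), Slc7a2 (r = 0.971, rho = 0.549) and Rspry1 (r = 0.968, rho = 0.779), and r there rests on the 4 C57BL/6J AngII libraries, since Il6 was near 0 in the rest. For Socs3 they were Il13ra1 (r = 0.983, rho = 0.938), Lilr4b (r = 0.973, rho = 0.874) and Ms4a6d (r = 0.968, rho = 0.685). For Osmr they were B4galt5 (r = 0.981, rho = 0.947), Kctd11 (r = 0.963, rho = 0.95) and Tram1 (r = 0.962, rho = 0.903). On deviations from group means r was lower for all of these genes. It was then 0.82, 0.21 and 0.71 for the genes named with Il6. For those named with Socs3 it was 0.61, 0.68 and 0.55, and for those named with Osmr 0.86, 0.79 and 0.68, in the order given.

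The AngII responses of the strains were set against each other by subtracting the log2 effect in 129S6/SvEvTac from that in C57BL/6J. The difference contains the C57BL/6J response with which the genes were chosen, so for the 8 genes it is a description with no test. The log2 difference was 2.50 ± 0.31 for Socs3, 2.67 ± 0.47 for Lif and 1.47 ± 0.30 for Il6ra (SE, n = 4 libraries per group). Without the 2 fat-marked libraries these were 2.68, 3.03 and 1.41. It was 0.50 ± 0.21 for Osmr and 0.17 ± 0.10 for Stat3, both higher with AngII in each strain, and 0.77 ± 0.60 for Il6st and 0.15 ± 0.17 for Lifr (SE). Socs3, Lif and Il6ra thus had the larger differences relative to their SE, and Il6, with 0 counts in C57BL/6J controls, is given by its counts alone. The fit called 5.34% of all tested genes higher and 4.62% lower in this comparison, 9.96% in all, and nothing is read from that share for the 8 genes.

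**Figure D2:**
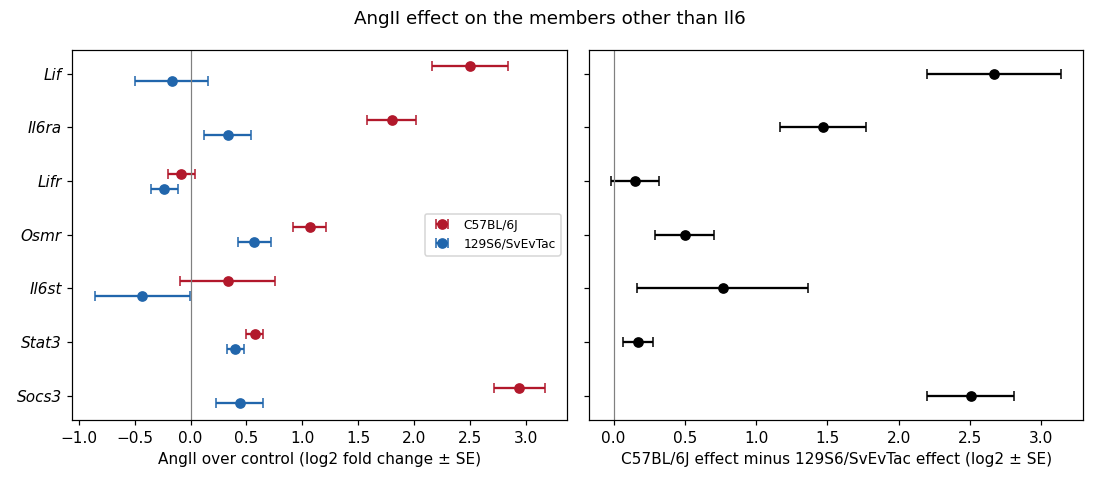
Left, log2 fold change of AngII over control with SE for the 7 genes other than Il6, in C57BL/6J and 129S6/SvEvTac (n = 4 libraries per group). Right, the difference of the 2 effects (C57BL/6J minus 129S6/SvEvTac) with SE, a description that contains the C57BL/6J response, with Lif, Socs3 and Il6ra farthest to the right.

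The comparison between the strains without AngII shares the C57BL/6J controls with the response used to choose the genes. Its p-values for the 8 genes are thus not independent of that choice. Of the 8, 1 passed edgeR's threshold. Stat3 was 1.19-fold higher in C57BL/6J controls, at 131 ± 7.30 CPM against 110 ± 4.61 CPM in those of 129S6/SvEvTac (SD, n = 4 each, log2 0.26 ± 0.07, SE, edgeR adjusted p = 0.0368). Its call held in 14 of 25 alternatives, with adjusted p from 0.00633 to 0.111, and Stat3 was the only 1 of 8 called, beside 5.35% of all tested genes called higher and 5.06% lower, 10.4% in all. Il6ra averaged 11 ± 1.06 CPM in control aortas of C57BL/6J, against 16.1 ± 3.56 CPM in those of 129S6/SvEvTac (SD, n = 4 each), a log2 difference of -0.54 ± 0.21 (SE, adjusted p = 0.135). It passed with limma voom (log2 -0.58, adjusted p = 0.0362) and in a fit of those groups alone (log2 -0.55, adjusted p = 0.041).

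With AngII in both strains, the comparison rests on the C57BL/6J AngII libraries on which the genes were chosen, and it too is a description with no test. Beside it, 16.8% of all tested genes were called higher in C57BL/6J and 14.6% lower. Socs3 was 7.12-fold higher in C57BL/6J (79.2 ± 11.4 against 11.1 ± 4.33 CPM in 129S6/SvEvTac, SD, n = 4 each). Lif was 5.79-fold higher (8.31 ± 3.67 against 1.42 ± 0.629 CPM, SD) and Osmr 1.73-fold (95.7 ± 20.4 against 55.4 ± 6.13 CPM, SD). Stat3 was 1.34-fold higher (195 ± 16.6 against 145 ± 8.63 CPM, SD), and for these 4 genes no library of one strain reached the range of the other. Il6ra was 1.90-fold higher (38.5 ± 11.2 against 20.2 ± 4.43 CPM, SD), although the lowest C57BL/6J library and the highest 129S6/SvEvTac library were both at 25.3 CPM. The ranges of Il6st and of Lifr overlapped between the strains.

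Levels of different genes were compared per kilobase of exon (CPM per kb, mean ± SD, n = 4). In C57BL/6J AngII libraries the order was Il6st at 41.3 ± 18.5, Socs3 at 27.4 ± 3.96, Stat3 at 20.5 ± 1.75, Osmr at 7.90 ± 1.68, Lifr at 6.31 ± 1.12, Il6ra at 4.45 ± 1.29, Il6 at 4.37 ± 2.38 and Lif at 1.91 ± 0.843 CPM per kb. Only Stat3 and Osmr were neighbours with no overlap of their ranges. In C57BL/6J controls it was Il6st at 32.7 ± 15.9, Stat3 at 13.8 ± 0.766, Lifr at 6.68 ± 0.517, Osmr at 3.76 ± 0.495, Socs3 at 3.56 ± 0.434, Il6ra at 1.28 ± 0.123, Lif at 0.337 ± 0.0338 and Il6 at 0 CPM per kb, and there only Osmr and Socs3 overlapped. Socs3 thus stood above Stat3 in mean level with AngII in C57BL/6J, though their ranges overlapped, and below Lifr in the controls of that strain. The 129S6/SvEvTac AngII and control libraries had 1 shared order of means, Il6st, Stat3, Lifr, Osmr, Socs3, Il6ra, Lif and Il6. In the AngII libraries, Il6st ran at 31.6 ± 16.5, Stat3 at 15.2 ± 0.906 and Socs3 at 3.84 ± 1.5 CPM per kb, and Il6st overlapped Stat3, Osmr overlapped Socs3 and Socs3 overlapped Il6ra. In the 129S6/SvEvTac controls the same 3 genes ran at 42.6 ± 13.4, 11.5 ± 0.484 and 2.84 ± 0.0519 CPM per kb, and only Osmr and Socs3 overlapped.

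**Figure D3:**
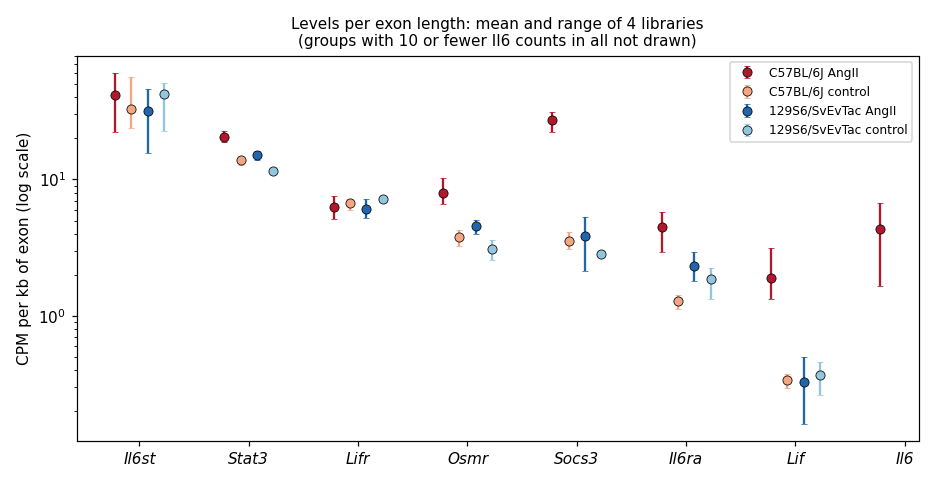
Mean (points) and range (bars) of the level per kb of exon on a log axis, 4 libraries per group. Groups with 10 or fewer Il6 counts in all are not drawn for Il6, and Socs3 is the gene whose place in the order differs most between C57BL/6J AngII libraries and the other groups.

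Of the 9 other ligands and ligand partners of the family, 7 could be tested, and Ctf2 and Il27 were too low. With AngII in C57BL/6J, 4 rose and 1 fell (median log2 2.07, beside 0.009 over all tested genes, of which 21.8% were called higher and 17.1% lower). Osm, oncostatin M, was at 1.35, 2.51, 2.26 and 1.76 CPM in C57BL/6J AngII libraries, against 0.0838, 0.388, 0.341 and 0.463 CPM in controls (6.17-fold, log2 2.63 ± 0.75, SE, edgeR adjusted p = 0.0121). Il11, interleukin 11, which also signals through gp130, was at 3.16, 5.20, 2.11 and 1.56 CPM with AngII, against 0.201, 0.302, 0.461 and 1.05 CPM in controls (5.97-fold, log2 2.58 ± 0.79, SE, edgeR adjusted p = 0.0176). The Il11 call was lost without AngII 2 (adjusted p = 0.06), control 1 (0.0531) or control 2 (0.0557). All AngII libraries exceeded all controls for both genes. Clcf1, a cytokine of the same family, rose 2.71-fold (19.4 ± 11.5 against 7.14 ± 0.882 CPM, SD, n = 4 each, edgeR adjusted p = 0.00184). The gene that fell was Ctf1, cardiotrophin 1, at 5.09 ± 0.874 against 6.98 ± 0.229 CPM (SD, n = 4 each, edgeR adjusted p = 0.0309). Clcf1 shares 311 bp of exon with another gene on its strand and Ctf1 87 bp with Ctf2 on the other strand, so their reads may be split.

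In 129S6/SvEvTac, 3 of those 7 rose with AngII and none fell by edgeR, limma voom or DESeq2 (median log2 -0.01). Beside this, 7.71% of all tested genes were called higher and 4.47% lower. The calls of Clcf1 (2.04-fold, adjusted p = 0.0431) and Il11 (7.30-fold, adjusted p = 0.0476) were lost in 12 and 13 of the 16 fits that each left out 1 library, and 1 gene of the 7 was called without the 2 fat-marked libraries. Il11 held 49, 7, 16 and 79 counts in AngII libraries 1, 2, 4 and 5. Its controls 1, 2, 3 and 4 held 7, 8, 0 and 0 counts, so the size of its fold rests on values near 0. Osm was at 0.113, 0.101, 0 and 0.157 CPM with AngII and 0.158, 0, 0.190 and 0.111 CPM in controls (edgeR adjusted p = 0.911). For the difference of effects, 0 of 7 were called by edgeR or limma voom and 1 by DESeq2, with 2 at an unadjusted p below 0.05. With 9.96% of all tested genes called there by edgeR, 0 of 7 is no result about the list. Between strains, Clcf1 was the 1 of 7 called in controls, and with AngII Osm, Clcf1, Ebi3 and Il11 were higher in C57BL/6J, Osm by 19.8-fold (edgeR adjusted p = 0.00106), beside 10.4% of all tested genes called in controls and 16.8% called higher with AngII. The Clcf1 call in controls was lost in 6 of the 16 fits that left out 1 library (adjusted p up to 0.0851), and the Il11 call with AngII in 5 of them (0.0538 to 0.0976).

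**Figure D4:**
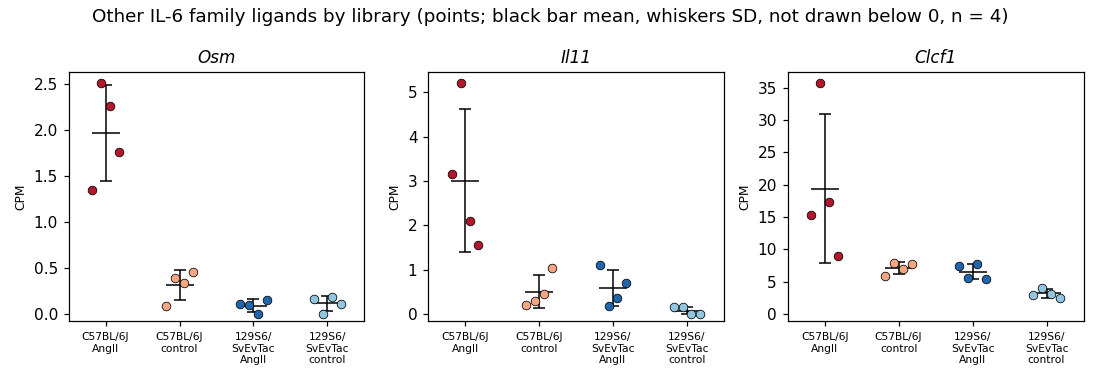
CPM of Osm, Il11 and Clcf1 in the 4 libraries of each group, with 1 vertical scale per gene. Osm is above 1 CPM only in C57BL/6J AngII libraries.

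Of 7 other receptors and shedding proteases, 2 rose and 2 fell with AngII in C57BL/6J (median log2 0.10, beside 21.8% and 17.1% of all tested genes), and 0 rose and 2 fell in 129S6/SvEvTac by edgeR and limma voom, with 1 higher by DESeq2 (median log2 -0.08, beside 7.71% and 4.47%). Il11ra1, the interleukin 11 receptor, fell in both, to 142 ± 22.6 CPM with AngII against 259 ± 7.20 CPM in C57BL/6J controls (1.82-fold lower, edgeR adjusted p = 3.41e-05) and to 182 ± 21.7 CPM with AngII against 270 ± 25.4 CPM in 129S6/SvEvTac controls (1.49-fold lower, edgeR adjusted p = 0.00418; SD, n = 4 each). Il11ra2, a near-identical copy whose reads may be shared with Il11ra1, fell 2.74-fold in C57BL/6J (edgeR adjusted p = 0.00228) and 2.59-fold in 129S6/SvEvTac (adjusted p = 0.0119). Adam10 and Adam17, proteases that shed the IL-6 receptor from the cell surface, rose 1.73-fold (edgeR adjusted p = 0.000177) and 1.41-fold (adjusted p = 0.00803) in C57BL/6J. None of the 7 was called for the difference of effects by edgeR, limma voom or DESeq2, with 2 at an unadjusted p below 0.05, and none between control strains, with 0 at an unadjusted p below 0.05. With 9.96% and 10.4% of all tested genes called in those comparisons, under 1 call in 7 genes is what the share over all genes gives.

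Of 10 JAK kinases and other STATs, 5 rose and 2 fell with AngII in C57BL/6J (median log2 0.34, beside 21.8% and 17.1% of all tested genes). Jak1 rose 1.34-fold (edgeR adjusted p = 0.000171), Jak3 4.19-fold (adjusted p = 0.000704) and Stat4 9.66-fold (adjusted p = 0.00985), and Stat5b fell 1.25-fold (adjusted p = 0.00169). Without the 2 fat-marked libraries 3 of the 10 rose and 1 fell. Stat4 held 99, 142, 139 and 132 counts in C57BL/6J AngII libraries and 0, 13, 36 and 0 in C57BL/6J controls. The size of its fold thus rests on control values near 0. Of its 3872 bp of exon, Stat4 shares 1033 bp with Gm28177 on its strand. Jak3 shares 404 bp with Insl3 on its strand, so the reads of both may be split. Jak3 and Stat4 are known mainly from lymphoid cells. The T cell marker sum was 1.80 to 5.98 CPM in C57BL/6J AngII libraries and 1.17 to 2.75 CPM in C57BL/6J controls, and these ranges overlap. Jak3 was at 17.9, 7.77, 3.72 and 10.97 CPM in C57BL/6J AngII libraries 1, 2, 3 and 5. Macrophage marker sums there were 1484, 903, 882 and 1700 CPM. The part of either marker list in these changes was not tested. In 129S6/SvEvTac only Tyk2 rose (1.28-fold, edgeR adjusted p = 0.0264), and with scaling by library size alone none rose and 2 fell. A count of 1 in 10 is near the 7.71% of all tested genes called higher there, and so is no result about the list.

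Of 16 other inhibitors and adaptors, 3 rose and 2 fell in C57BL/6J with AngII (median log2 0.17). Both shares lie below the 21.8% of all tested genes called higher and the 17.1% called lower, so the count is no result about the list. Ptpn1, a phosphatase that acts on JAKs, rose 1.43-fold (edgeR adjusted p = 4.06e-05) and Ptpn6, the phosphatase SHP-1 of blood cells, rose 4.64-fold (adjusted p = 8.51e-05). Pias1, an inhibitor of STAT signalling, fell 1.67-fold in C57BL/6J (edgeR adjusted p = 5.13e-05) and 1.42-fold in 129S6/SvEvTac (adjusted p = 0.00504). Cish, another SOCS family member, rose 2.47-fold in C57BL/6J (edgeR adjusted p = 0.0232), a call lost without AngII 1 (0.101), control 1 (0.0684) or control 2 (0.0687). Socs2, of the same family as Socs3, was at 41.0 ± 9.30 CPM with AngII against 50.3 ± 3.12 CPM in controls of C57BL/6J, and 53.9 ± 5.66 CPM with AngII against 39.2 ± 3.22 CPM in controls of 129S6/SvEvTac (SD, n = 4 each). Its difference of effects was -0.76 ± 0.19 on the log2 scale (SE, edgeR adjusted p = 0.0243), lost without 129S6/SvEvTac AngII 4 (0.0519) or control 2 (0.0534).

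Of 17 textbook STAT3 target genes, 13 rose and 0 fell with AngII in C57BL/6J by edgeR, limma voom and DESeq2 (median log2 1.04, 13 without the 2 fat-marked libraries). Beside this, 21.8% of all tested genes were called higher and 17.1% lower, and the list was chosen with earlier results of these data known. Timp1, an inhibitor of matrix metalloproteinases, reached 289 ± 170 CPM with AngII, against 16 ± 3.45 CPM in controls (SD, n = 4 each, 18.1-fold, edgeR adjusted p = 1.04e-06). Myc rose 8.55-fold (adjusted p = 2.69e-06), Birc5, a survival and cell division gene, 24.5-fold (adjusted p = 1.21e-05) and Hif1a 1.76-fold (adjusted p = 7.61e-06). The 4 that did not pass included Fos, at 50.1 ± 29.7 CPM with AngII and 74.1 ± 14.8 CPM in controls, named after its value was seen. With AngII in 129S6/SvEvTac, 7.71% of all tested genes were called higher and 4.47% lower. Of the 17, limma voom called 8 higher there, and DESeq2 7 higher and 1 lower. By edgeR 5 of 17 rose and 0 fell (median log2 0.58, with 11 at an unadjusted p below 0.05). They were Timp1 (3.75-fold, edgeR adjusted p = 0.00113), Hif1a (1.40-fold, adjusted p = 0.00226), Ccnd1 (2.21-fold, adjusted p = 0.00494), Birc5 (5.83-fold, adjusted p = 0.00508) and Pim1. The effect was larger in C57BL/6J for 5 of 17, beside 5.34% of all tested genes, among them Myc (log2 difference 2.38 ± 0.39, SE, edgeR adjusted p = 0.00289), Timp1 (2.27 ± 0.43, adjusted p = 0.00581) and Il4ra (1.42 ± 0.30, adjusted p = 0.00984). Leaving out 1 library gave 3 to 7, with 3 without 129S6/SvEvTac AngII 1, 129S6/SvEvTac control 2 or 3, or C57BL/6J control 1 or 2. The calls of the other two, Bcl3 and Vegfa, were each lost in 11 of those 16 fits, with adjusted p of 0.054 and 0.0631 without C57BL/6J AngII 5. These genes have other regulators, and the list holds genes of dividing cells such as Birc5 and Myc.

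Of 12 acute-phase genes, which IL-6 induces in liver, 7 rose with AngII in C57BL/6J by edgeR (median log2 2.44) and 6 by DESeq2. None fell by edgeR, limma voom or DESeq2. In the edgeR fit without the 2 fat-marked libraries 7 rose and 1 fell. Beside this, 21.8% of all tested genes were called higher and 17.1% lower, and this list too was chosen with earlier results known. Serpina3n rose 7.79-fold (304 ± 80.6 against 39.0 ± 23.7 CPM, SD, n = 4 each, edgeR adjusted p = 2.85e-05), Lcn2 34.7-fold (adjusted p = 0.00017), Lbp 3.6-fold (adjusted p = 0.000357) and Hp 59.4-fold (adjusted p = 0.000603). Hp ranged from 32.3 to 2648 CPM among C57BL/6J AngII libraries and overlapped the controls' 7.98 to 35.7 CPM, with the highest value in the library with the highest adipocyte sum; the part of that sum was not tested. In 129S6/SvEvTac 0 of 12 were called by edgeR and 1 each by limma voom and DESeq2, with 4 at an unadjusted p below 0.05 and a median log2 of 0.95. With 7.71% of all tested genes called higher and 4.47% lower there, 0 of 12 is no result about the list. Serpina3n there was at 125 ± 46.6 CPM with AngII and 69.7 ± 14.5 CPM in controls (SD, n = 4 each, edgeR adjusted p = 0.142). The difference of effects was called for 3 of 12, beside 9.96% of all tested genes, with Serpina3n at log2 2.12 ± 0.50 (SE, edgeR adjusted p = 0.0175). It was called for 1 of 12 without the 2 fat-marked libraries. Leaving out 1 library gave 1 to 5, and 1 in 9 of the 16 fits.

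**Figure D5:**
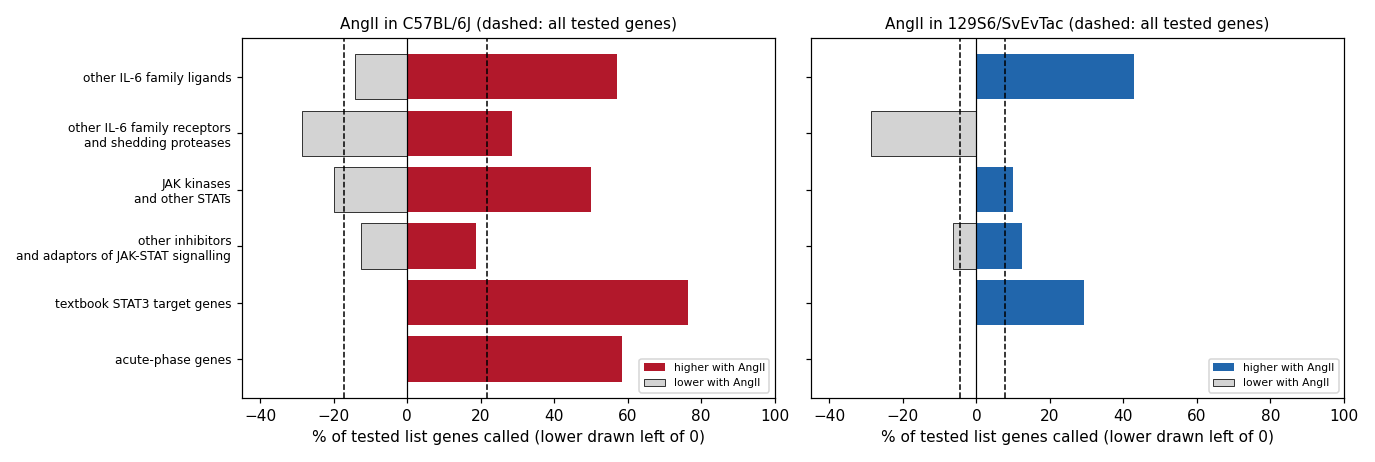
Share of each list's tested genes called higher (right of 0) or lower (left of 0) with AngII, in C57BL/6J (left panel) and 129S6/SvEvTac (right panel), with dashed lines at the shares over all tested genes, 21.8% and 17.1% in C57BL/6J and 7.71% and 4.47% in 129S6/SvEvTac. The STAT3 target and acute-phase lists have no gene called lower in either strain.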

How the data were processed

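The deposited table gives an expected count (an estimated count, already whole) for each gene, which the authors made by HISAT2 alignment to GRCm38 (mm10) and StringTie quantification with Gencode, per the labels' protocols. DESeq2 1.26.0 and R 3.6.2 are named without a role in the submitters' processing notes. Neither the Gencode release nor the use of strand is stated, nor how StringTie output became counts. Names and exon lengths come from GENCODE M21, which named 52403 genes and left 233 unnamed, and promoters from RefSeq (GRCm38.p6). No 2 replicates agreed within sampling noise (lowest chi-square per degree of freedom 40.92).

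Counts as deposited were fitted with edgeR 4.0.16 in R 4.3.3 (filterByExpr with minimum count 10, TMM, robust quasi-likelihood, 1 mean per group over 16 libraries). The SE is the log2 fold change divided by the root of F. CPM is counts over TMM-scaled library size, and patterns were compared on log2 CPM with a prior count of 2. Alternatives were DESeq2 1.42.0, limma 3.58.1 voom with quality weights, a replicate block, fits of the compared groups alone, RLE scaling or none beyond library size, a filter of 1 CPM in 4 samples or none, and libraries left out. The fit was tested on simulated counts with 200 changed genes.

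The 8 genes, the 6 pathway lists (71 genes) and the 9 cell marker lists were chosen with earlier results of these data known. Named were all 8 genes, per list and comparison up to 4 called genes by smallest p, Il11 and Osm, and for Il6, Osmr and Socs3 the 3 genes of highest Pearson r (mean of at least 1 CPM). The text describes a selection of these, and some results are not reported here.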

Additional observations from a re-analysis of the deposited data

Results flagged for a closer look

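Of 32 sets of 4 libraries (8 genes in 4 groups), 4 held a library that stood far from the other 3. Il6 in C57BL/6J controls, at 0 in all 4, could not be marked. Chance alone marks about 1 in 20 such sets if values are normally distributed. That rate does not hold for Il6 in 129S6/SvEvTac, where any single library above 0 is marked. Il6 was highest at 0.0524 CPM in 129S6/SvEvTac AngII 5 and at 0.0564 CPM in 129S6/SvEvTac control 2, with 0 counts in the other libraries of each group, so these rest on 6 and 3 counts. Il6st stood at 628 CPM in C57BL/6J control 3, above 265.8 to 282.7 CPM in the other 3, and at 251 CPM in 129S6/SvEvTac control 2, below 526 to 562 CPM in the other 3.

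For the difference of AngII effects, Il6 passed edgeR's threshold (adjusted p below 0.05) but is left out, with 0 counts in C57BL/6J controls. Its call was also lost without 129S6/SvEvTac control 2, the only control library with Il6 counts. Another 3 genes passed, with log2 differences (C57BL/6J minus 129S6/SvEvTac) of 2.50 for Socs3, 2.67 for Lif and 1.47 for Il6ra (n = 4 libraries per group). The genes were chosen with the C57BL/6J response known and the difference contains it, so these values are a description and no independent support.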

How the results depend on the processing

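No called log2 change of the 8 genes changed sign under any alternative. With 1 library left out, the 8 genes in 5 comparisons kept their side of the threshold in 627 fits, lost it in 12 and gained it in 1, and under the other settings they kept it in 341, lost it in 6 and gained it in 3. Since 3 of the comparisons contain the C57BL/6J AngII libraries used to choose the genes, these counts describe the fits and are no support for the genes. Limma voom called more genes for AngII in 129S6/SvEvTac (3325 against 2087) and between control strains (3212 against 1783), where a fit of those groups alone called 2772. For the difference of effects, against 1706 genes, DESeq2 called 2685, limma voom 2682 and the fit without C57BL/6J AngII 1 and 129S6/SvEvTac AngII 5 called 1049; single omissions gave 1039 (without 129S6/SvEvTac control 2) to 2990 (without C57BL/6J AngII 3), and 1076 without 129S6/SvEvTac AngII 4. Of the 8 genes, AngII in 129S6/SvEvTac called 1 without those 2 libraries and 1 to 3 with single omissions, in place of 2. Between control strains, in place of 1, 0 were called with library size only, with no filter, with the replicate block and without those 2 libraries, 2 with limma voom and with only the groups compared, and 0 or 1 with single omissions. For Il6ra and Stat3 this limits the statements on control strains, and the cause of these moves was not tested. Scaling by library size only moved the share of calls that were higher from 56.1 to 45.4% (AngII in C57BL/6J), from 63.3 to 25.2% (AngII in 129S6/SvEvTac) and from 53.6 to 65.2% (difference of effects). The fit with the replicate number as a block called 6175, 1426, 1590, 1383 and 4459 genes for AngII in C57BL/6J, AngII in 129S6/SvEvTac, the difference, control strains and strains with AngII. The replicate numbers share no stated origin. Deviations of same-numbered libraries from their group means correlated weakly, at -0.06 to 0.146. Depth limits Il6 in 129S6/SvEvTac, where 9 counts in 8 libraries carry its values.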
